A study of Homo sapiens with 6 samples.

Results

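MAP1B, PPP2CA, DLG4, APP, RAC1 and SOD1 are 6 human transcripts known as neuronal targets of FMR1, the fragile X protein. Their binding sites were taken from 6 lists of PAR-CLIP sites by position, as every site whose midpoint lay in the gene's hg19 span on the gene's strand. This rule uses no measured level. The 6 spans held 826 of the 464799 sites in the 6 lists. MAP1B contributed 629 of these sites, PPP2CA 104, APP 54, SOD1 22, RAC1 12 and DLG4 5.

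PAR-CLIP records where a protein touched RNA in living cells, through ultraviolet crosslinking of a photoreactive nucleoside built into the RNA. All 6 libraries came from HEK293 FlpIn T-REx cells, an established human embryonic kidney line in which a tagged gene is inserted at a prepared place and switched on with doxycycline. The cells expressed a FLAG-HA-tagged protein: wild-type FMR1 in its isoform 1 (wt-iso1), in its isoform 7 (wt-iso7), either isoform with I304N (I304N-iso1 and I304N-iso7), FXR1 or FXR2. Every culture received 1 µg/ml doxycycline and 100 µM 4-thiouridine for 16 h, light at 365 nm, RNase T1 for 15 min and precipitation through the FLAG tag. The tagged protein was therefore added to kidney-derived cells and was not studied in neurons. There was 1 library for each protein form and hence no replicate error for any value. Bracketed ranges are exact 95% intervals, Clopper-Pearson for shares and conditional for ratios of shares, and they cover counting error alone.

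FMR1 binds mRNAs through KH domains and an RGG motif and is best known for restraining their translation near synapses. Its loss causes fragile X syndrome, and FXR1 and FXR2 are paralogs with the same RNA-binding folds. I304N is a missense change in a KH domain, found in a patient with severe fragile X syndrome. MAP1B mRNA, which encodes a microtubule-associated protein of growing axons, is among the longest-studied FMR1 targets. PPP2CA encodes the catalytic subunit of protein phosphatase 2A, and DLG4 encodes PSD-95, a scaffold of the postsynaptic density. APP encodes the amyloid precursor protein, RAC1 a small GTPase that shapes actin in dendritic spines, and SOD1 the cytosolic copper-zinc superoxide dismutase.

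The lists ranged from 9017 sites in FXR1 to 132219 in I304N-iso1, so a gene with 0 sites could still hold up to 0.0333% of FXR1 sites but only 0.00227% of those of I304N-iso1 (3 counts of the list). The lists carry no read numbers and no mRNA levels. More RNA of a gene in the cell and more binding per RNA molecule cannot be told apart. Sites of wt-iso1 were also wider than the others in MAP1B, with a median of 49 nt against 25 nt in wt-iso7, 32 nt in I304N-iso1, 31 nt in I304N-iso7 and 20 nt in both paralogs. A wide site counts once, as a narrow one does, and values by bases covered are given where they differ.

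The 6 genes together made up 0.144% (0.124 to 0.167) of the sites of wt-iso1, 0.192% (0.163 to 0.226) of wt-iso7, 0.135% (0.116 to 0.157) of I304N-iso1 and 0.177% (0.151 to 0.207) of I304N-iso7. They made up 0.316% (0.259 to 0.381) of FXR2 sites and 0.599% (0.450 to 0.781) of FXR1 sites. By number of sites, both paralog lists were richer in these genes than each FMR1 list. By bases covered, FXR1 stayed highest at 0.612%, but FXR2, at 0.309%, was close to wt-iso1, at 0.302%. MAP1B held 92.6% of the FXR1 sites in the 6 genes and 80.7% of the FXR2 sites, against 68.8% to 82.8% in the FMR1 libraries. The other 5 genes together stood at 0.983 times the share of wt-iso1 in FXR1 (0.259 to 2.66) and 1.35 times in FXR2 (0.774 to 2.27). Against wt-iso7 they stood at 1.34 times in FXR1 (0.340 to 3.86) and 1.84 times in FXR2 (0.983 to 3.39). None of these 4 intervals excluded an equal share.

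**Figure D1:**
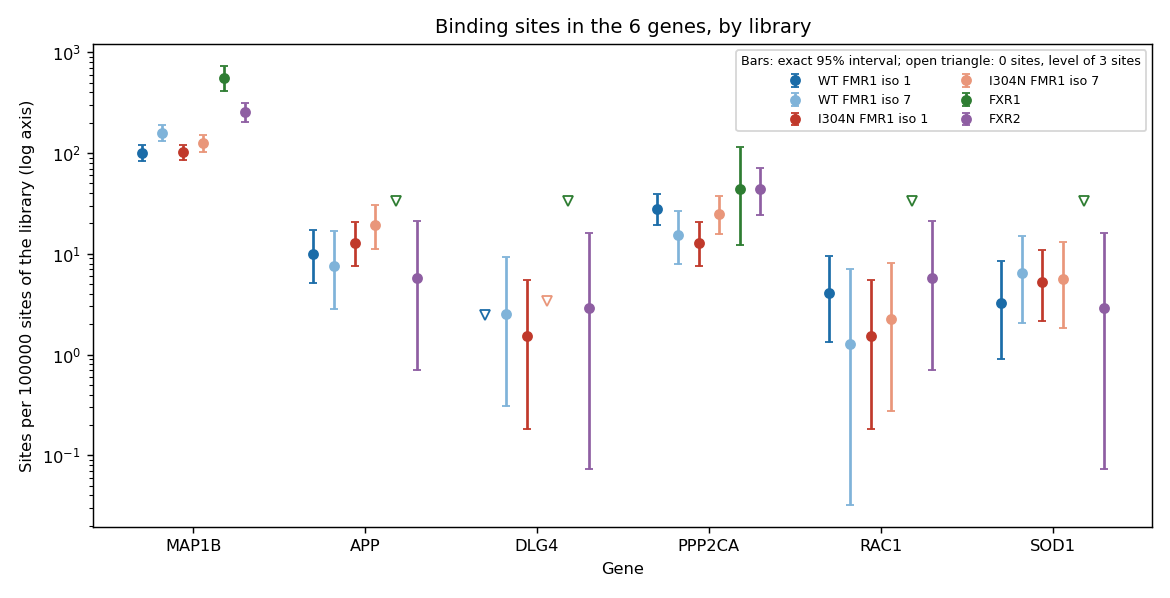
Number of sites per 100000 sites of the library (vertical axis, log scale) for each gene (horizontal axis) and library (colour), with exact 95% counting intervals; an open triangle stands for 0 sites and is drawn at the level of 3 sites. MAP1B lies above the other genes in every library and is highest in FXR1 at 555, while APP, DLG4, RAC1 and SOD1 have no FXR1 site.

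MAP1B (ENSG00000131711.14, hg19 chr5:71403118-71505397, plus strand) had the most sites of the 6 genes in every library, by number and per kb of span. It held 121 sites in wt-iso1, 125 in wt-iso7, 134 in I304N-iso1, 111 in I304N-iso7, 50 in FXR1 and 88 in FXR2. The 4 FMR1 libraries gave nearly the same number although their lists differed in length. No site lay on the opposite strand, and none lay within 10000 nt outside either end of the span on the gene's strand. Per 100000 sites of the library, MAP1B had 99.3 (82.4 to 119) in wt-iso1, 159 (133 to 190) in wt-iso7, 101 (84.9 to 120) in I304N-iso1 and 125 (103 to 151) in I304N-iso7. It had 255 (205 to 314) in FXR2 and 555 (412 to 730) in FXR1. The order from low to high was wt-iso1, I304N-iso1, I304N-iso7, wt-iso7, FXR2 and FXR1. Neighbours among the first 4 had overlapping intervals, and the intervals of FXR2 and FXR1 overlapped with no other library.

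Set against the length of the mature RNA, MAP1B was also the most densely occupied by sites within the spans. The longest protein-coding MAP1B transcript in GENCODE 29 has 12036 nt, and MAP1B had 8.25, 13.2, 8.42, 10.4, 46.1 and 21.2 sites per 100000 and kb of mRNA in wt-iso1, wt-iso7, I304N-iso1, I304N-iso7, FXR1 and FXR2. For PPP2CA, with 4649 nt, the same measure was 6.0, 3.29, 2.77, 5.34, 9.54 and 9.35. SOD1, whose mRNA has only 966 nt, followed with 3.40 to 6.59 in the FMR1 libraries and exceeded PPP2CA in wt-iso7, I304N-iso1 and I304N-iso7. APP reached 2.16 to 5.41 in the FMR1 libraries, RAC1 0.548 to 1.77, and DLG4, with the second longest mRNA of 6835 nt, at most 0.424 in any library.

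Nearly all MAP1B sites fell in a small part of its 102 kb span. Sites of all libraries were joined into stretches where gaps were at most 200 nt, and 579 of the 629 sites lay in 2 of the 8 stretches. The first long stretch, chr5:71489705-71496191, was 6487 nt long, began 86587 nt from the 5′ end of the span and held 369 sites, which placed it at rank 6 by number of sites among the 92142 stretches of the 6 lists. It held 62 sites of wt-iso1, 80 of wt-iso7, 82 of I304N-iso1, 77 of I304N-iso7, 23 of FXR1 and 45 of FXR2. The second, chr5:71500907-71505332, was 4426 nt long, ended 65 nt from the 3′ end and held 210 sites at rank 49. Its sites numbered 50, 33, 43, 24, 24 and 36 in the same order of libraries. The longest exon of the GENCODE 29 transcript, exon 5 of 7, has 6502 nt and the last exon has 4487 nt. Exon positions in hg19 were not analysed here, so only these lengths can be set beside the stretches.

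Between them lay a short stretch at chr5:71499408-71499629, 222 nt, with 4 sites of wt-iso1, 4 of wt-iso7, 3 of I304N-iso1, 4 of I304N-iso7, 2 of FXR1 and 4 of FXR2. A further one at chr5:71482445-71482569 had sites of all 6 proteins in 125 nt. The stretch nearest the 5′ end, chr5:71403330-71403543, had 1, 3, 2 and 2 sites of the FMR1 libraries, 1 of FXR2 and 0 of FXR1. All 6 libraries thus had sites in each of the last 4 MAP1B stretches, and upstream of the first long one only short stretches of at most 9 sites were called.

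**Figure D2:**
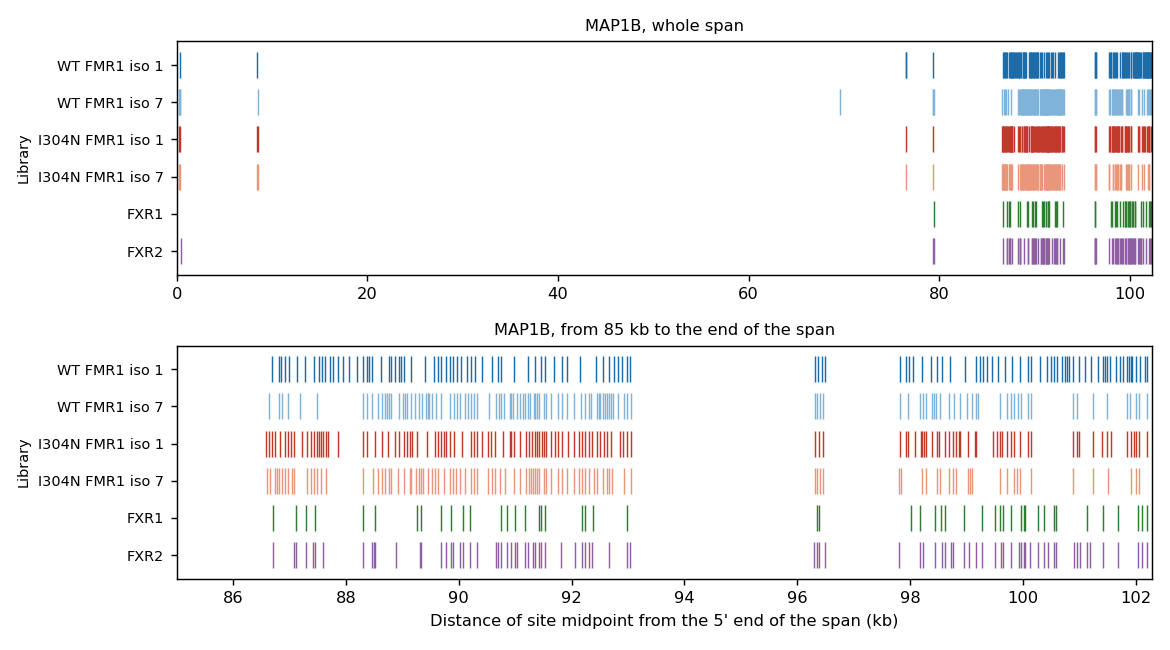
Site midpoints along MAP1B (horizontal axis, kb from the 5′ end of the span) with 1 row per library; the lower panel enlarges the last part. Each tick is 1 site. Both long stretches hold sites of all 6 libraries, and the downstream one is sparser in I304N-iso7 (24 sites) than in wt-iso1 (50 sites).

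The 2 long stretches did not share out their sites alike in the libraries. Of the MAP1B sites in both, the downstream stretch held 44.6% (35.2 to 54.3) in wt-iso1, 29.2% (21.0 to 38.5) in wt-iso7, 34.4% (26.1 to 43.4) in I304N-iso1 and 23.8% (15.9 to 33.3) in I304N-iso7. It held 51.1% (36.1 to 65.9) in FXR1 and 44.4% (33.4 to 55.9) in FXR2. FXR1, FXR2 and wt-iso1 lay highest and I304N-iso7 lowest, and the interval of I304N-iso7 ended below the start of those of FXR1, FXR2 and wt-iso1. The wt-iso7 library had 2.00 times the share of wt-iso1 in the upstream stretch (1.42 to 2.84) and 1.02 times in the downstream one (0.640 to 1.62). By bases covered rather than sites, the downstream share was 39.3% in wt-iso1 and 28.96% in wt-iso7, with 25.3% and 16.6% in the I304N libraries of isoform 1 and isoform 7, 52.9% in FXR1 and 47.1% in FXR2. Sites of wt-iso1 covered 80.4% of the upstream stretch and 76.4% of the downstream one, while FXR1 sites covered 7.09% and 11.7%.

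Within the upstream MAP1B stretch the sites were spread over its whole length. Counted in bins of 1000 nt, all libraries together had 57, 33, 58, 60, 77 and 55 sites in the 6 full bins from 5′ to 3′. The second bin held 4 sites each of wt-iso7 and I304N-iso7, 7 of I304N-iso1 and 11 of wt-iso1. All 5 sites of this stretch that the authors marked as lying in a repeat were among those 11. The fifth bin held 14 of the 45 FXR2 sites and 7 of the 23 FXR1 sites, more than any other bin of the stretch in either paralog. It was also the fullest bin of wt-iso7, with 19 of 80 sites, and held 15 sites of each I304N library but 7 of the 62 sites of wt-iso1. Of the 22 MAP1B sites that the authors marked as lying in a repeat, 17 were in the downstream stretch, and 16 of the 22 came from wt-iso1. The mark differed between libraries at the same bases. At chr5:71491404-71491430 the wt-iso1 site was marked and the sites of the other libraries were not. The number in wt-iso1 therefore does not show more repeat sequence in its sites. Without the marked sites the downstream share in wt-iso1 was 40.6%.

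Replacing wild-type FMR1 by I304N left the MAP1B share of the list at 1.02 times in isoform 1 (0.793 to 1.32) and 0.786 times in isoform 7 (0.603 to 1.02). By list length, a 2-fold difference in either direction lies outside both intervals, which cover only counting error between single libraries. By bases covered, the isoform 1 value was -0.58 on the log2 scale with a pseudocount of 1, against 0.03 by sites, and with median-of-ratios scaling it was 0.66, so its direction depended on the measure. Isoform 7 had 1.60 times the MAP1B share of isoform 1 as wild type (1.24 to 2.08) and 1.24 times with I304N (0.952 to 1.60). The wild-type difference between isoforms was 0.68 on the log2 scale by sites and -0.28 by bases covered, so it too reversed when wide sites were given their width. It was 1.27 with median-of-ratios scaling.

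FXR1 had 5.59 times the MAP1B share of wt-iso1 (3.94 to 7.83) and 3.48 times that of wt-iso7 (2.46 to 4.87). At the share of wt-iso1, its 9017 sites would have put 8.95 in MAP1B, and 50 were found. FXR2 had 2.57 times the share of wt-iso1 (1.93 to 3.41) and 1.60 times that of wt-iso7 (1.2 to 2.12). By bases covered the FXR1 value against wt-iso1 was 1.17 on the log2 scale, down from 2.47 by sites, and that of FXR2 was -0.0039, down from 1.35, so the higher FXR2 share against this library held for numbers of sites only. With median-of-ratios scaling, FXR1 against wt-iso7 was 0.77 on the log2 scale, against 1.79 by list length, and FXR2 was -0.02, against 0.68. FXR1 exceeded FXR2 by 2.18 times (1.51 to 3.11), and by 1.17 on the log2 scale by bases covered.

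FXR1 and FXR2 touched largely the same places in MAP1B. Of the 50 FXR1 sites in MAP1B, 48, or 96%, were overlapped by an FXR2 site on the same strand (74.4% over the FXR1 list). Among these 50 sites, 29 shared both ends with an FXR2 site to the base. Seen from the longer list, 54.5% of the 88 FXR2 sites were overlapped by an FXR1 site (19.4% over the FXR2 list). The wt-iso1 library overlapped 47 of the 50 FXR1 sites, or 94% (70.0% over the list), and 85 of the 88 FXR2 sites, or 96.6% (64.4%). Sites of wt-iso1 covered 80.4% of the upstream long stretch and 76.4% of the downstream one. The shares over the lists are therefore no like background for overlaps with wt-iso1 in MAP1B. The wt-iso7 library, whose sites cover less of the gene, overlapped 21, or 42% (21.2% over the list), and 52, or 59.1% (32.1%). All 111 MAP1B sites of I304N-iso7 were overlapped by a site of I304N-iso1 (75.9% over the list), and 109 of them by a site of wt-iso1 (42.6%). Of those 111, 8 shared both ends with a site of I304N-iso1. Identical ends were counted in MAP1B alone, so no share over the lists stands beside them. The I304N sites were also wider in MAP1B, with medians of 32 nt in I304N-iso1 and 31 nt in I304N-iso7 against 20 nt in both paralogs. The pairs can therefore not be ranked by identical ends.

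Over all 6 genes, 94.4% of FXR1 sites were overlapped by wt-iso1, where the share over the whole FXR1 list was 70.0%, and 92.7% of FXR2 sites, where it was 64.4%. The I304N list of isoform 1 overlapped 68.5% of the FXR1 sites in the 6 genes (27.4% over the list) and 76.1% of the FXR2 sites (46.2% over the list). Sites of the mutant and wild-type proteins also met more often here than over their lists. I304N-iso1 sites were overlapped by wt-iso1 in 83.8% of cases (41.7% over the list), and I304N-iso7 sites by wt-iso7 in 68.2% (41.9% over the list). MAP1B, where sites are crowded, supplied most of the sites behind these shares. In the other 5 genes, wt-iso1 overlapped all 4 FXR1 sites and 76.2% of the 21 FXR2 sites, and I304N-iso1 overlapped 1 of the 4 FXR1 sites and 57.1% of the FXR2 sites. There, 51.1% of the 45 I304N-iso1 sites were overlapped by wt-iso1, above the share over the list, and 37.0% of the 46 I304N-iso7 sites by wt-iso7, below it. These differences from the lists were not tested.

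Sites that touched each other on a strand were merged into regions, of which the 6 genes had 191. Sites of all 6 libraries were found in 24 of them, or 12.6% (8.22 to 18.1), against 0.607% of the 237434 regions of the lists. MAP1B had 23 of the 24, and 44 of its 103 regions held sites of all 4 FMR1 libraries. Over the lists, 9.13% of regions held all 4 FMR1 libraries. No MAP1B region held sites of both I304N libraries without a wild-type site (8.31% over the lists), and 1 held sites of both wild-type libraries without I304N (1.89%). Crowding lengthened these regions: the median was 65 nt in MAP1B and 24 nt over the lists. Among regions of at most 60 nt (a limit added with the data in view), 2 of 50 in MAP1B held all 6 libraries, or 4% (0.488 to 13.7), against 0.153% over the lists. The shortest of the MAP1B regions with all 6 proteins was chr5:71491404-71491430, 27 nt, where each library had 1 site. Single bases covered by every library numbered 203 of the 9962 covered in MAP1B, or 2.04%.

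PPP2CA (ENSG00000113575.9, hg19 chr5:133532148-133561950, minus strand) was the only other gene with sites in all 6 libraries. It held 34 sites of wt-iso1, 12 of wt-iso7, 17 of I304N-iso1, 22 of I304N-iso7, 4 of FXR1 and 15 of FXR2. Per 100000 sites, these were 27.9 (19.3 to 39.0), 15.3 (7.90 to 26.7), 12.9 (7.49 to 20.6), 24.8 (15.6 to 37.6), 44.4 (12.1 to 114) and 43.5 (24.3 to 71.7) in the same order. Intervals of neighbours in this order of levels overlapped throughout. I304N-iso1 had 0.461 times the PPP2CA share of wt-iso1 (0.242 to 0.848), while I304N-iso7 had 1.62 times that of wt-iso7 (0.769 to 3.60). With median-of-ratios scaling the isoform 1 value was -0.46 on the log2 scale, against -1.06 by list length, which is no longer past 2-fold.

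The PPP2CA sites lay in 7 stretches, and the low number of I304N-iso1 sites was that of the last of these. That stretch, chr5:133532157-133533528, was 1372 nt long within the span, at its 3′ end, and held 23 sites of wt-iso1 against 3 of wt-iso7, 4 of I304N-iso1, 6 of I304N-iso7, 3 of FXR1 and 6 of FXR2. It thus held 67.6% (49.5 to 82.6) of the PPP2CA sites of wt-iso1, 25% (5.49 to 57.2) of those of wt-iso7, 23.5% (6.81 to 49.9) of I304N-iso1 and 27.3% (10.7 to 50.2) of I304N-iso7. In FXR1 it held 75% (19.4 to 99.4) and in FXR2 40% (16.3 to 67.7). The wt-iso1 library stood apart from I304N-iso1 and wt-iso7 at this end: their shares of the list were 0.160 times (0.0403 to 0.469) and 0.203 times (0.0389 to 0.670) its own. Among all stretches tested in the lists, 28.3% were at least 2-fold lower in I304N-iso1 than in wt-iso1, and 21.8% in wt-iso7, so stretches at least 2-fold lower were common in both comparisons. In the rest of PPP2CA the ratio of I304N-iso1 to wt-iso1 was 1.09 (0.450 to 2.69), and that of wt-iso7 was 1.27 (0.465 to 3.37).

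The dense run of sites did not stop at the end of the PPP2CA span. In the 3000 nt downstream there were 26 further sites of wt-iso1, 2 of wt-iso7, 6 of I304N-iso1, 4 of I304N-iso7, 4 of FXR1 and 9 of FXR2 on the same strand. With these added, the end held 81.7% of the sites of wt-iso1, 35.7% of wt-iso7, 43.5% of I304N-iso1, 38.5% of I304N-iso7, 87.5% of FXR1 and 62.5% of FXR2. FXR1 had 12.2 times the share of wt-iso7 at this extended end (3.33 to 48.7) and FXR2 6.82 times (2.36 to 23.99), whereas against wt-iso1 the ratios were 1.93 (0.738 to 4.29) and 1.08 (0.563 to 1.96). The ratios against wt-iso7 rest on 7 sites of FXR1, 15 of FXR2 and 5 of wt-iso7, and were scaled by list length only. No share of stretches past 2-fold was computed for the paralog comparisons. The intervals of both paralogs thus excluded 1 against wt-iso7 and included it against wt-iso1. Followed past the end of the span, the last stretch was 2876 nt long. The last exon of the longest protein-coding PPP2CA transcript has 3511 nt. Exon positions were not analysed here, so only these lengths can be set side by side. Whether the downstream sites belong to PPP2CA was not tested. The downstream extension was added after seeing the data.

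**Figure D3:**
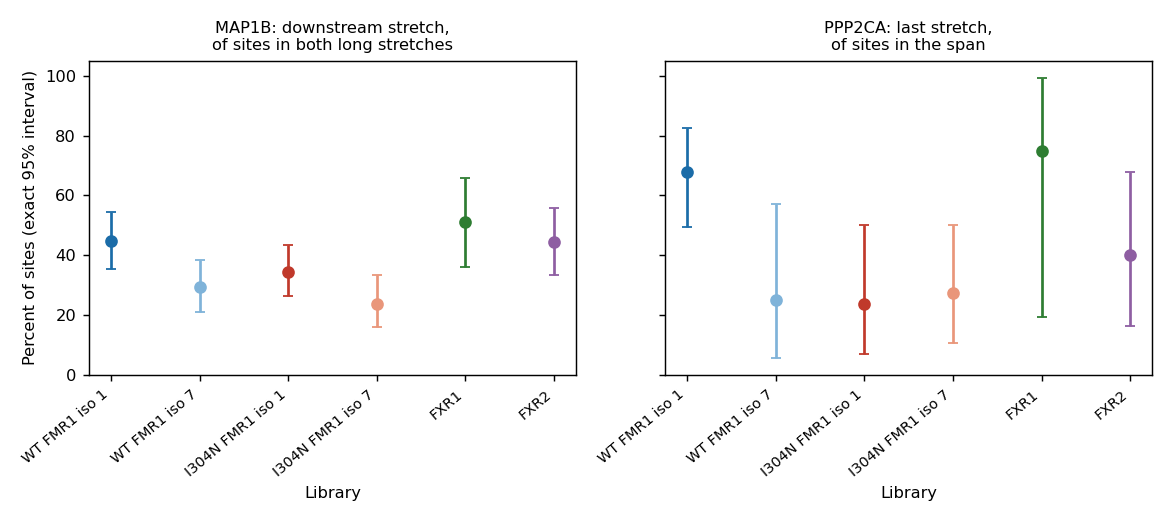
Percent of sites (vertical axis, with exact 95% intervals) in the downstream long stretch of MAP1B, of the sites in both long stretches (left), and in the last stretch of PPP2CA, of all PPP2CA sites in the span (right), for each library (horizontal axis). The wt-iso1 library lies at 44.6% and 67.6%, I304N-iso7 at 23.8% and 27.3%; FXR1 in PPP2CA rests on 4 sites.

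At the opposite end of PPP2CA, the stretch chr5:133561459-133561701 began 249 nt from the 5′ end. It held 2 sites of wt-iso1, 3 of wt-iso7, 5 of each I304N library, 2 of FXR2 and 0 of FXR1. A stretch of 155 nt at chr5:133536035-133536189 held 2 sites of wt-iso1, 2 of wt-iso7, 2 of I304N-iso1, 3 of I304N-iso7 and 2 of FXR2. These numbers are too small to order the libraries. A single PPP2CA region, chr5:133532918-133532969, was met by all 6 proteins, with 1 site each in 52 nt. Of the 36 merged PPP2CA regions, 12 held sites of wt-iso1 alone, or 33.3%, against 21.8% of all regions of the lists.

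**Figure D4:**
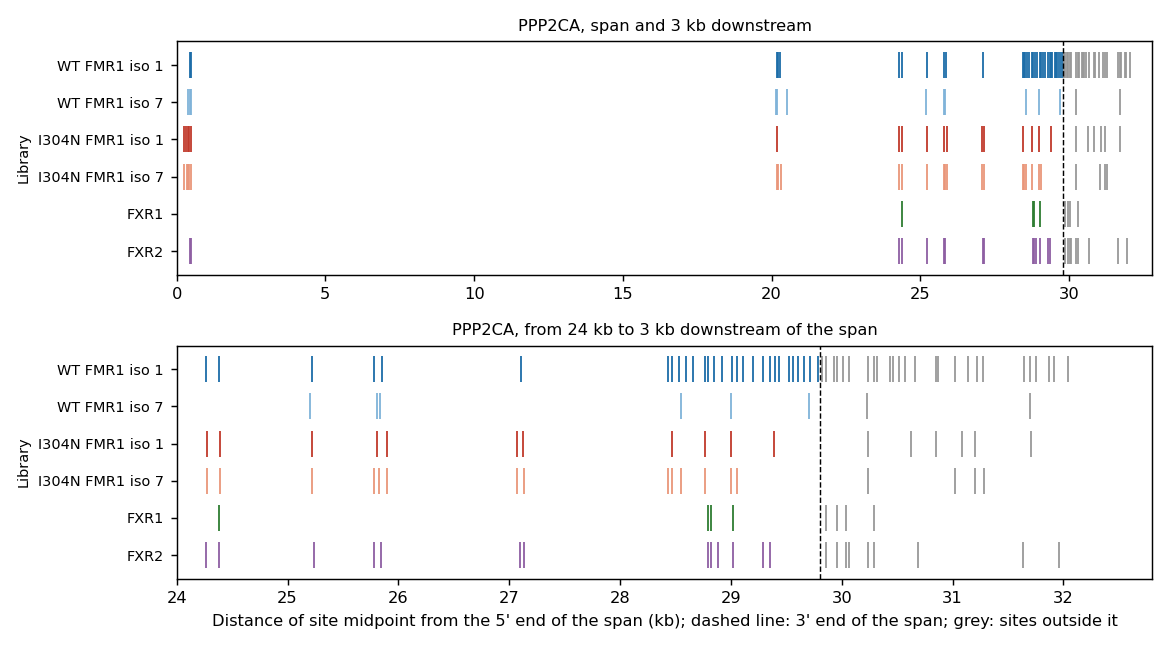
Site midpoints along PPP2CA and the 3 kb downstream (horizontal axis, kb from the 5′ end of the span), 1 row per library and 1 tick per site; the dashed line marks the 3′ end of the span and sites beyond it are grey. The last stretch and the downstream 3 kb hold 49 sites of wt-iso1 and 5 of wt-iso7.

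DLG4 (ENSG00000132535.19, hg19 chr17:7093209-7123369, minus strand) was nearly free of sites. It had 2 sites in wt-iso7, 2 in I304N-iso1, 1 in FXR2 and none in the other libraries. The level of 3 sites there is 0.00246% of wt-iso1 sites, 0.00338% of I304N-iso7 sites and 0.0333% of FXR1 sites. No DLG4 site was called for those 3 proteins, and the wt-iso7 and FXR2 lists, which had some, are shorter than those of wt-iso1 and I304N-iso7. For DLG4, the intervals included an equal share in I304N-iso7 (0 to 4.71) and FXR1 (0 to 46.4) against wt-iso7. The interval of wt-iso7 against wt-iso1 started at 0.292 and had no upper limit. The absence of DLG4 sites in wt-iso1, I304N-iso7 and FXR1 therefore does not show a lower share. All 5 DLG4 sites lay within 1370 nt, between 7096373 and 7097742, and 2 of them, from I304N-iso1 and FXR2, met at chr17:7096826-7096849. Outside the span, 20 sites lay between 3000 and 10000 nt upstream of the DLG4 5′ end on its strand, 12 of them from I304N-iso1, and their gene was not analysed here.

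APP (ENSG00000142192.20, hg19 chr21:27252861-27543138, minus strand) had 12 sites in wt-iso1, 6 in wt-iso7, 17 in I304N-iso1, 17 in I304N-iso7, 0 in FXR1 and 2 in FXR2. They were spread over 18 stretches along the 290 kb span, in contrast to the crowding in MAP1B. At 12 of these stretches no library had more than 1 site. Sites of 4 libraries were found in 2 of them. The first, chr21:27264046-27264145, held both FXR2 sites, 1 site of wt-iso1, 1 of I304N-iso1 and 2 of I304N-iso7. The other, chr21:27326915-27326967, held 1 site of each FMR1 library. The last stretch, chr21:27253146-27253592, was 285 nt from the 3′ end and held 3 sites of wt-iso1, 1 of I304N-iso1 and 2 of I304N-iso7. The wt-iso7 library had no site in the final 10% of the APP span, where wt-iso1 had 5 of its 12. Just outside the span, however, both had 2 sites within 1000 nt downstream on the same strand, and 9 more lay between 1000 and 3000 nt, of which 3 were of wt-iso1, 2 of each I304N library and 1 of each paralog. Whether these belong to APP was not analysed here.

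In APP, I304N-iso7 had 2.51 times the share of wt-iso7 (0.944 to 7.77), and I304N-iso1 had 1.31 times that of wt-iso1 (0.588 to 2.997). Neither interval excluded an equal share. Sites of both I304N libraries without a wild-type site were found in 4 of the 32 merged APP regions, or 12.5%, against 8.31% of all regions of the lists. Sites of both wild-type libraries without an I304N site were found in no APP region, against 1.89%. At the share of wt-iso1, FXR1 would have had 0.888 sites in APP, so its 0 does not show a lower share.

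SOD1 (ENSG00000142168.14, hg19 chr21:33031935-33041244, plus strand) had 4 sites in wt-iso1, 5 in wt-iso7, 7 in I304N-iso1, 5 in I304N-iso7, 0 in FXR1 and 1 in FXR2. Several places recurred between libraries. The 4 FMR1 libraries each had 1 site at chr21:33036136-33036170, a region of 35 nt, and each had a site in the 49 nt from 33039637 to 33039685, the only SOD1 place that FXR2 touched. Near the 5′ end, chr21:33032008-33032072 had 1 site of each wild-type library and 2 of each I304N library. The last stretch, chr21:33040844-33040944, differed from these, with 2 sites of wt-iso7, 1 of I304N-iso1 and none of the other libraries. Within the 8 merged SOD1 regions, 2 held all 4 FMR1 libraries, and in APP 0 of 32 did, where the share over the lists was 9.13%. These numbers are too small to set the genes apart.

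RAC1 (ENSG00000136238.17, hg19 chr7:6414126-6443598, plus strand) had 5 sites in wt-iso1, 1 in wt-iso7, 2 in each I304N library, 2 in FXR2 and 0 in FXR1. All 12 lay in the final 10% of the span, between 6441954 and 6443307. The last exon of the longest protein-coding RAC1 transcript in GENCODE 29 has 1662 nt. The 29 nt from 6441954 to 6441982 held 1 site of wt-iso1 and of each I304N library, and none of wt-iso7. The 33 nt from 6442744 to 6442776 held 1 site of wt-iso7 and of each I304N library, but none of the 5 RAC1 sites of wt-iso1. Both FXR2 sites in RAC1 lay in regions without a site of any FMR1 library. Regions of this kind were 2 of the 8 merged RAC1 regions, or 25%, against 4.03% of all regions of the lists. Of the 33728 regions of the lists with an FXR1 or FXR2 site, 9560 held no FMR1 site. Of the 5 sites of wt-iso1, 4 lay in regions with no other library. Such regions were 4 of the 8 merged RAC1 regions, against 21.8% of all regions of the lists. These numbers are too small to set RAC1 apart.

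**Figure D5:**
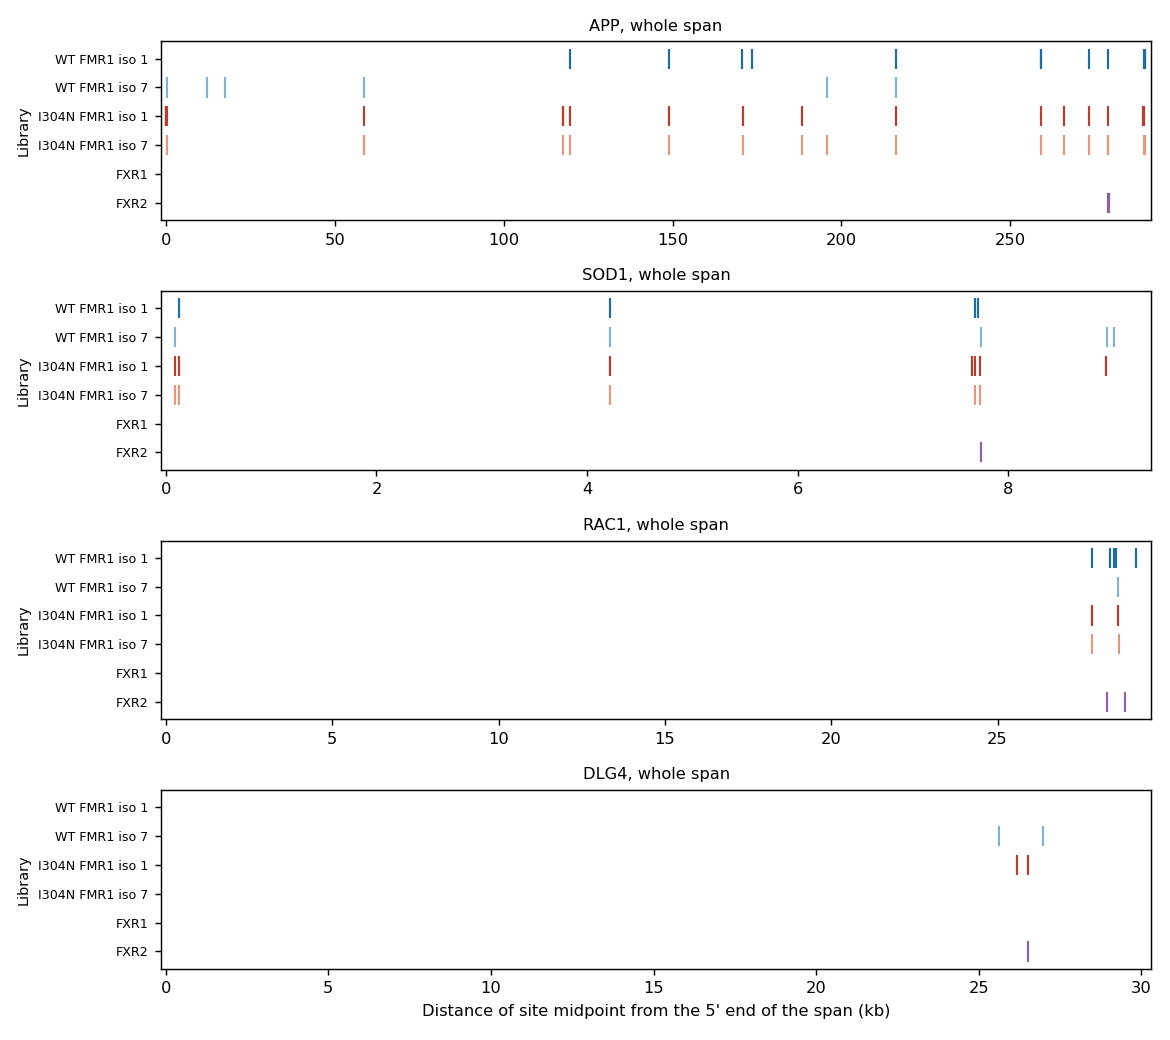
Site midpoints along APP, SOD1, RAC1 and DLG4 (horizontal axes, kb from the 5′ end of each span), 1 row per library and 1 tick per site. The 54 APP sites are spread along the whole gene, the 12 RAC1 sites all lie near its 3′ end, SOD1 shows the same places in several libraries, and the FXR1 rows are empty.

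Counts of genes past 2-fold, on sites per 100000 with a pseudocount of 1, were read against windows of 50 kb on a strand with a mean of at least 2 scaled sites. With I304N in isoform 1, DLG4 was higher and PPP2CA and RAC1 lower, where 29.9% of windows were higher and 20.4% lower. In isoform 7, APP was higher and DLG4 lower with I304N, where 21.4% of windows were higher and 20.1% lower. Between isoforms, DLG4 was higher and RAC1 lower in wt-iso7 (21.3% of windows higher and 22.4% lower), and with I304N DLG4 was lower in isoform 7 and no gene higher (5.5% and 16.3% of windows). DLG4 had a mean under 2 scaled sites in all 4 comparisons and would have been left out as a window, so the window shares are no background for it. DLG4 and RAC1 rest on at most 2 and 5 sites, and among these calls only the lower PPP2CA share with I304N in isoform 1 had an interval that excluded 1.

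For the paralogs, MAP1B was higher and APP, RAC1 and SOD1 lower in FXR1 than in wt-iso1, where 31.5% of windows were higher and 46.5% lower. Against wt-iso7, MAP1B and PPP2CA were higher and the other 4 genes lower (38.3% and 46.7% of windows). FXR2 was higher than wt-iso1 in MAP1B and DLG4 and lower in none (14.1% and 23.2% of windows). It was higher than wt-iso7 in PPP2CA and RAC1 and lower in none (20.5% and 23.6% of windows). FXR1 exceeded FXR2 in MAP1B and was lower in APP, DLG4, RAC1 and SOD1 (32.9% and 39% of windows). Every lower gene in the FXR1 comparisons had 0 FXR1 sites, and fewer than 1 site would have been found there at the share of the other library. The window minimum was also missed by DLG4 in all of these but FXR2 against wt-iso7, by SOD1 in FXR1 against wt-iso1 and against FXR2, and by RAC1 in FXR1 against wt-iso7. In the FXR1 list of 9017 sites, a single site brings a window to the minimum. A window that reached it without an FXR1 site was always past 2-fold lower. The window shares of the FXR1 comparisons can thus rest on single sites and are no like background for MAP1B, with 50 FXR1 sites. These comparisons share libraries and are not independent of each other. Among them, the intervals excluded 1 for MAP1B in FXR1 against both wild-type isoforms and against FXR2, for MAP1B in FXR2 against both wild-type isoforms (with wt-iso7 short of 2-fold), and for PPP2CA in FXR2 against wt-iso7, at 2.84 times (1.24 to 6.65). With median-of-ratios scaling that PPP2CA value was 0.78 on the log2 scale, against 1.45 by list length.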

How the data were processed

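RNA sites bound by 6 tagged proteins were mapped by PAR-CLIP, with 1 library per protein form, grouped by the precipitated protein named in the labels. The submitters' processing notes name Bowtie 0.12.7 and the build hg19. How sites were called, with which thresholds, from how many reads and whether libraries were pooled is not given in the sources used here. The score in the deposited lists marks repeats: the authors set it to 1000 outside a repeat and to 0 inside, per the file headers, so it carries no height. Each site therefore counted once, whatever its depth, and numbers of sites depend on sequencing depth and on the caller. The labels name a pair of Illumina models without saying which library was run on which.

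Sites were assigned to a gene by midpoint and strand in the 6 hg19 spans, with coordinates counted from 1. Site numbers were scaled to 100000 per library, and log2 ratios used a pseudocount of 1. Sites of all libraries were joined over gaps of at most 200 nt into stretches, and sites that touched into merged regions. An overlap of at least 1 nt on the same strand counted as shared. All 9 comparisons are between single libraries, so no p-value was computed, and the 54 ratios of single genes carry exact conditional 95% intervals. The background of 2-fold ratios came from strand-specific windows of 50 kb and, added after seeing the data, from stretches. Counts and intervals were tested on simulated data. Python 3.11.15 with numpy 2.4.6, pandas 2.3.3, scipy 1.17.1 and matplotlib 3.10.9 was used.

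The genes, lists and comparisons were chosen with earlier results of these data known. All 6 genes are named, with the 3 stretches of each gene that have the most libraries and the last with at least 3 sites. Other stretches and regions were named after their values were seen. Transcript and exon lengths come from GENCODE 29, from the longest protein-coding transcript of each gene, and no position was carried over from its build. Sequences, motifs, exon classes and other FMR1 target genes were not analysed here. Alternatives were other scaling, pseudocounts, gaps and overlap rules, bases covered, widened spans, strand ignored and repeat-flagged sites left out.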

Additional observations from a re-analysis of the deposited data

Results flagged for a closer look

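In several genes the same contrast pointed in opposite directions in its 2 settings, on the log2 scale with a pseudocount of 1. Each setting rests on 1 library against 1, and the difference between them was not tested. For PPP2CA, I304N against wild type was -1.06 in isoform 1 and 0.66 in isoform 7, and isoform 7 against isoform 1 was -0.83 in the wild type and 0.90 with I304N, a difference of 1.72 for both contrasts. For MAP1B, I304N against wild type was 0.03 in isoform 1 and -0.34 in isoform 7, a difference of -0.37; the isoform 1 value was -0.58 by bases covered. For APP, isoform 7 against isoform 1 was -0.33 in the wild type and 0.54 with I304N, a difference of 0.87; the wild-type value was 0.16 by bases covered, 0.21 with median-of-ratios scaling and 0.05 with strand ignored. For SOD1, I304N against wild type was 0.56 in isoform 1 and -0.15 in isoform 7, a difference of -0.71; the isoform 7 value was 0.18 by bases covered, 0.11 with median-of-ratios scaling and 0.08 with strand ignored. RAC1, with 1 to 5 sites per FMR1 library, differed by 1.54 for both contrasts. DLG4, with 0 to 2 sites, differed by -3.16 for both contrasts.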

How the results depend on the processing

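No paired analysis was possible because each protein form has 1 library, so the groups compared share fewer than 2 replicate numbers. For the same reason no library could be left out of a group. Of 486 alternatives for log2 ratios of the genes, 14 changed sign, and 1 of these began past 2-fold: MAP1B in FXR2 against wt-iso1, from 1.35 to -0.0039 by bases covered. Of the 14, 6 came with bases covered, 5 with median-of-ratios scaling and 3 with strand ignored, and 4 were in MAP1B, 3 in APP, 3 in SOD1, 2 in PPP2CA, 1 in RAC1 and 1 in DLG4. Median-of-ratios scaling shifted the libraries by 0.31, -0.28, -0.32, -0.58, 0.75 and 0.41 on the log2 scale, in the order wt-iso1, wt-iso7, I304N-iso1, I304N-iso7, FXR1 and FXR2. By bases covered, the 6 genes made up 0.302%, 0.240%, 0.207%, 0.225%, 0.612% and 0.309% of the lists in that order.

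The number of genes past 2-fold was sensitive to small counts. With a pseudocount of 5 it was 0 in all 4 comparisons among FMR1 libraries, against 3, 2, 2 and 1 at a pseudocount of 1. It was then 2 in place of 4 for FXR1 against wt-iso1, 1 in place of 2 for FXR2 against each wild-type isoform, and 3 in place of 5 for FXR1 against FXR2. By bases covered it was 1 for I304N in isoform 1 and 1 for FXR2 against wt-iso1. With strand ignored it was 1 for I304N in isoform 7, for the wild-type isoforms and for FXR2 against wt-iso7. With spans widened by 1000 nt it was 1 for I304N in isoform 7, and with median-of-ratios scaling it was 2 for the isoforms with I304N. The window percentages moved in 58 of 72 alternatives. The cause of these changes was not tested.

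Counting midpoints within 50 nt in place of overlaps, wt-iso1 met 81.5% of FXR1 and 83.5% of FXR2 sites in the 6 genes, and wt-iso7 met 66.7% and 67.0%. With gaps of 50 nt there were 18 stretches in MAP1B, 13 in PPP2CA and 6 in RAC1, and with gaps of 1000 nt 1 in DLG4 and 1 in RAC1. Alternatives chosen after seeing the data were bases covered in the end shares, which gave 25.3% for the downstream MAP1B stretch in I304N-iso1, the PPP2CA extension, and merged regions of at most 60 nt, of which 4% in MAP1B, 2.29% in the 6 genes and 0.153% over the lists held all 6 libraries. Depth limits the genes with few sites most, above all in FXR1.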
